A study of Mus musculus with 18 samples.

Results

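Mesothelial genes are genes that mark the flat cell layer covering the abdominal organs and visceral fat. The 10 genes described here are Msln, Upk3b, Upk1b, Lrrn4, Wt1, Krt19, Krt8, Krt18, Muc16 and Gpm6a. They were chosen by name, with earlier results of these data known. All 10 were found in both deposited tables, out of 46983 gene names listed. Each was followed library by library in adipose and set against bone marrow.

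RNA was sequenced from male C57BL/6J mice, an inbred strain, in a study that asks about glutamine, skeletal strength and fitness in obese mice. There were 5 adipose libraries from the high-fat-diet arm given glutamine (HFD + Gln), 4 adipose libraries from the arm without it (HFD), 5 marrow libraries from HFD + Gln and 4 marrow libraries from HFD. Adipose titles read mAT-MSC VAT and marrow titles mBMSC, and HFD is carried by all 18 descriptions, so no library from lean animals was compared. The labels do not give an age, say what the number pair in each name stands for, or say that libraries came from separate animals, so each p-value covers the spread among these libraries and no more, and that spread may be technical.

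The mesothelium is an epithelial sheet of mesodermal origin that secretes lubricating fluid and lines the peritoneal cavity. Its cells hold a keratin skeleton like other simple epithelia and carry surface proteins such as mesothelin and uroplakins. In visceral fat depots it forms the outer covering, which is absent from subcutaneous fat. Bone marrow has no mesothelium.

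Levels are CPM, which are counts scaled to a library's total count, from reads at the 3′ end of transcripts, so that counts need no correction for transcript length. Totals ran from 35871168 to 59529238 counts in adipose and from 13970788 to 37984603 in marrow. Between 11361 and 14469 genes reached 100 counts in an adipose library, against 1755 to 7323 in a marrow library. A list of 10 adipose progenitor genes summed to 14138 to 21308 CPM in adipose and 1599 to 4857 CPM in marrow, most of it from Dcn, a matrix proteoglycan. edgeR called 5 of the 10 higher in adipose and none lower, where 40.5% of 15203 genes were called higher. Their median log2 difference was 1.52, near the 1.43 of all genes tested. Adipoq, the adipocyte hormone gene, went the other way, with a mean of 28.4 CPM in the 8 adipose libraries without the library 25_27 described below and 302 CPM in marrow. It was not typical of its list of 6 adipocyte genes, of which edgeR called 4 higher in adipose and 1 lower. The 6 summed to 695 to 1861 CPM in adipose and 6.37 to 706 CPM in marrow. A list of 8 osteoblast and marrow stroma genes summed to 254 to 657 CPM in adipose and 2744 to 12998 CPM in marrow. The column of 1 marrow HFD + Gln library matches no sample title and is called unnumbered.

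In these genes the adipose HFD + Gln library 25_27 stood apart from the other 8 adipose libraries, which carry the same VAT label. The 10 members summed to 8.92 CPM there, against 284 to 848 CPM in the other 8 adipose libraries and 1.52 to 4.01 CPM in marrow. In that library 8 of 10 members lay below every other adipose library in CPM, against 6.44% of 18085 genes with at least 100 counts in some adipose library. At least 8-fold below lay 7 of 10 members, against 0.769% of those genes. For all genes that share was higher in HFD libraries 1_3, 5_11 and 23_28, at 1.18%, 3.85% and 4.03%, and in HFD + Gln library 4_6, at 1.51%. Results that use library 25_27 are therefore given with and without it. Leaving it out was decided after its values were seen. Since the members were low in it, leaving it out raises their adipose level by construction.

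**Figure D1:**
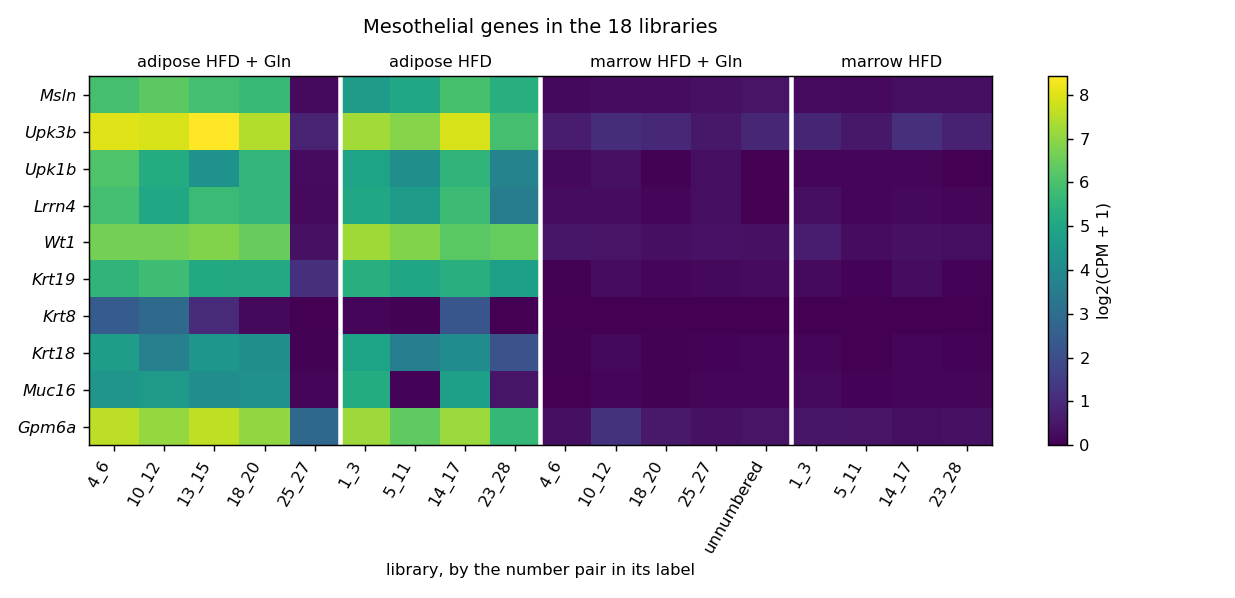
Heat map of log2(CPM + 1) for the 10 members (rows) in the 18 libraries (columns), with adipose HFD + Gln, adipose HFD, marrow HFD + Gln and marrow HFD from left to right. Most of the adipose block is bright apart from library 25_27, where 1 member, Gpm6a, reached 100 counts. Krt8 is also dark in adipose libraries 18_20, 1_3, 5_11 and 23_28, and Muc16 in adipose libraries 5_11 and 23_28. No member reached 100 counts in any marrow library.

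On GRCm38, with the GENCODE annotation, Upk3b spans chr5:136038496-136046487 and Gpm6a chr8:54954843-55060871 on the plus strand. Msln spans chr17:25748613-25754378 on the minus strand and Wt1 chr2:105126529-105173616 on the plus strand. All 4 are protein-coding genes, and values are per gene.

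Upk3b, Gpm6a and Wt1 had the highest pooled levels of the members over the 8 other adipose libraries, at 201, 135 and 103 CPM. Upk3b, a uroplakin of urothelium and mesothelium, had 255, 237, 341, 175 and 0.805 CPM in HFD + Gln adipose libraries 4_6, 10_12, 13_15, 18_20 and 25_27, against 150.3, 119, 238 and 59.9 CPM in HFD adipose libraries 1_3, 5_11, 14_17 and 23_28. In marrow it ranged from 0.455 to 1.25 CPM with a median of 0.816 CPM. All adipose libraries other than 25_27 stood above all marrow libraries. Gpm6a, a membrane glycoprotein of the proteolipid family that is also abundant in neurons, had 191, 135, 193, 133 and 5.99 CPM in the HFD + Gln adipose libraries and 143, 81.2, 142 and 47.3 CPM in the HFD adipose libraries. Its marrow values were 0.250 to 1.36 CPM with a median of 0.345 CPM, and the tissues did not overlap even with library 25_27.

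Msln encodes mesothelin, a lipid-anchored surface glycoprotein of mesothelial cells. It had 59.8, 77.4, 59.4, 50.1 and 0.148 CPM in the HFD + Gln adipose libraries, against 24.4, 32.1, 62.0 and 38.7 CPM in the HFD adipose libraries. Its marrow level was 0.129 to 0.355 CPM with a median of 0.224 CPM. Msln was above marrow in all adipose libraries but 25_27, and HFD library 14_17 lay among the HFD + Gln libraries. Upk1b, a tetraspanin uroplakin, ranged from 12.6 to 67.6 CPM over the 8 other adipose libraries with a median of 31.7 CPM. Lrrn4, a transmembrane protein with leucine-rich repeats, ranged from 10.8 to 59.3 CPM there with a median of 38.9 CPM. In library 25_27 they were at 0.191 and 0.148 CPM, and their highest marrow values were 0.286 and 0.263 CPM. Upk2 and Upk3a, with which Upk1b and other uroplakins build the urothelial plaque, had no counts in any of the 18 libraries, where 3 counts correspond to 0.0504 to 0.215 CPM depending on depth. Upk1a reached at most 3.55 CPM in adipose.

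Wt1, a zinc finger transcription factor of mesothelium, kidney and gonad that also marks visceral fat progenitors, had 98.8, 100.7, 113, 87.3 and 0.297 CPM in the HFD + Gln adipose libraries. In the HFD adipose libraries it had 147, 113, 75.8 and 85.4 CPM, and in marrow 0.201 to 0.553 CPM. Wt1 was the steadiest member. Its coefficient of variation over the 8 other adipose libraries was 0.217, followed by Krt19 at 0.245, Msln at 0.349, Gpm6a at 0.372, Lrrn4 at 0.434, Upk3b at 0.450, Krt18 at 0.482, Upk1b at 0.546, Muc16 at 0.695 and Krt8 at 1.27.

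The keratins differed from each other. Krt19, a type I keratin of simple epithelia, ranged from 25.8 to 54.5 CPM over the 8 other adipose libraries, with 1.19 CPM in library 25_27 and 0.0430 to 0.215 CPM in marrow. Krt8 and Krt18 encode a type II and a type I keratin that pair into filaments, and the genes lie 23698 bases apart on chromosome 15. Krt18 had 25.2, 11.8, 20.3, 17.3 and 0.0424 CPM in the HFD + Gln adipose libraries and 28.4, 11.2, 15.7 and 3.46 CPM in the HFD adipose libraries. Krt8 had 4.48, 6.53, 1.03, 0.146 and 0.0212 CPM in the HFD + Gln adipose libraries and 0.111, 0.0279, 3.76 and 0 CPM in the HFD adipose libraries. Krt8 thus reached 100 counts in 3 adipose libraries while Krt18 reached 100 counts in 8. Of 271 words of 30 bases in the last 300 bases of Krt18, 22 also occur in the pseudogene Gm5200, which the deposited tables do not name. Whether reads of Krt18 were lost for that was not tested. The other 9 members shared at most 1 such word with another gene.

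Muc16 encodes a large membrane mucin that binds mesothelin. It had 19.8, 22.3, 16.5, 18.0 and 0.0847 CPM in the HFD + Gln adipose libraries, against 35.1, 0.0558, 26.0 and 0.396 CPM in the HFD adipose libraries. It was therefore high in 6 adipose libraries and near 0 in HFD libraries 5_11 and 23_28, in which Msln, its binding partner, was at 32.1 and 38.7 CPM. Krt7, a keratin of simple epithelia that is no member, followed the same division with 0.223 and 1.41 CPM in those 2 libraries and 14.8 to 23.6 CPM in the other 6 besides 25_27. Libraries 5_11 and 23_28 also had the highest sums of 7 macrophage genes, at 497 and 774 CPM against 149 to 347 CPM in the other 7 adipose libraries. These 2 libraries also had the fewest genes at 100 counts in adipose, 11361 and 11862 against 12385 to 14469. In them 3.85% and 4.03% of all genes with at least 100 counts in some adipose library lay at least 8-fold below every other adipose library. The part of macrophages or of this wider loss of genes in the Muc16 and Krt7 values was not tested.

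Every member passed the test between tissues. In the edgeR quasi-likelihood fit of all 18 libraries, 10 of 10 members were higher in adipose after Benjamini-Hochberg adjustment over 15203 genes. Over all genes, 40.5% were called higher in adipose. Since the members were chosen with earlier results of these data known, their count is a description and no independent support. The log2 differences ran from 5.62 ± 0.930 (SE) for Msln with an adjusted p of 4.09e-05 to 8.34 ± 2.23 for Krt8 with an adjusted p of 0.00668. Upk3b differed by 5.78 ± 1.02 (adjusted p 8.99e-05), Wt1 by 6.26 ± 1.01 (3.01e-05) and Gpm6a by 6.25 ± 0.953 (1.62e-05). The median of the 10 was 6.02, against 1.43 for all genes tested, and the tissue contrast shifts with scaling, so the members stood 4.599 above the median of all genes. With relative log expression factors that median of all genes was -1.94 and with upper-quartile factors -0.89, while the members stood 4.19 and 3.65 above it. The default TMM factors gave 6150 genes higher and 1708 lower in adipose, relative log expression factors 2465 higher and 6524 lower, and upper-quartile factors 3222 higher and 5144 lower. Under the other 2 scalings 7 and 6 members were called, all higher in adipose, while DESeq2 called 7 and limma-voom 1.

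Without library 25_27 the edgeR fit again called 10 of 10 members higher in adipose, against 38.4% of 14762 genes. Relative log expression and upper-quartile factors called 9 members each, DESeq2 8 and limma-voom 8. In CPM, which are scaled to the total count alone, the tissues could be set side by side library by library. With all 18 libraries, adipose and marrow values did not overlap for 2 of 10 members, Krt19 and Gpm6a, against 15.9% of 15307 genes with adipose higher. Without library 25_27 they did not overlap for 8 of 10 members, all but Krt8 and Muc16, against 16.8% of 14869 genes. The two-sided exact permutation p of the difference in mean log2(CPM + 1) was 4.11e-05 for Krt19 and Gpm6a and at most 0.0014, for Muc16, with 9 libraries a side, and 4.11e-05 is the smallest that 9 against 9 allows. Other cell types moved with the tissue too. All 5 endothelial genes listed were called higher in adipose, with a median log2 difference of 6.00, close to that of the members, and summed to 496 to 1556 CPM in adipose and 2.39 to 256 CPM in marrow. All 5 neutrophil genes were called lower in adipose, at a median of -10.41, and summed to 44.1 to 275 CPM in adipose and 2588 to 50181 CPM in marrow. Their part in the members' differences was not tested. In bulk samples fewer cells of a type and less RNA per cell cannot be told apart.

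The trace of each member in marrow was a nearly fixed share of its adipose level. Pooled over libraries, the marrow level was 0.2997% of the level in the 8 other adipose libraries for Gpm6a, 0.324% for Wt1, 0.384% for Upk3b, 0.434% for Msln and 0.436% for Muc16. The 9 members detected in marrow all fell between 0.2997% and 0.436%, and their pooled levels followed the same order in marrow as in adipose. Krt8 had 0 counts in all 9 marrow libraries, where 3 counts over the whole group correspond to 0.0127 CPM. Its pooled level in the 8 other adipose libraries, 2.16 CPM, was 171-fold that floor. This is not a lower bound, since the exact binomial interval of the marrow level reached 0.0156 CPM. Adipose HFD + Gln libraries 4_6, 10_12 and 13_15 and HFD library 14_17 had 1.03 to 6.53 CPM of Krt8. Adipose HFD + Gln library 18_20 and HFD libraries 1_3, 5_11 and 23_28 had 0 to 0.146 CPM. The share was not particular to mesothelial genes. Of 9428 genes with at least 10 pooled CPM in those adipose libraries, 1440 had a marrow level under 1% of the adipose level, and the median share of these was 0.405%. The labels' protocol names a single sequencing lane. Whether reads passed between libraries was not tested, and values at this share give no order of expression among marrow libraries.

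**Figure D2:**
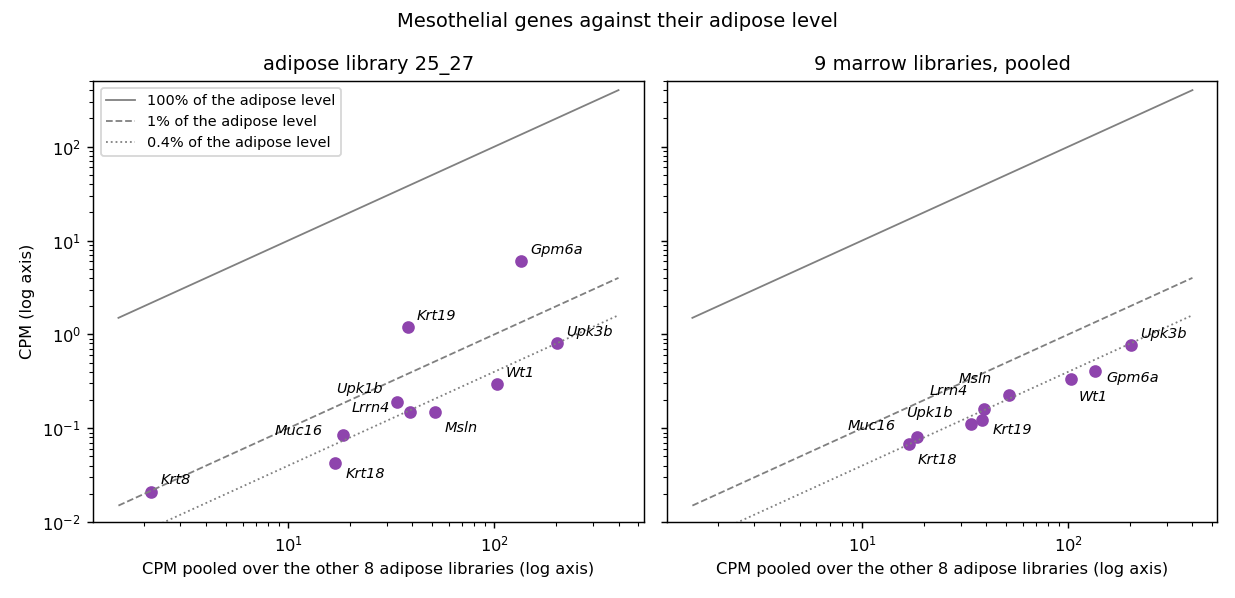
Pooled CPM of each member in the 8 other adipose libraries (horizontal, log axis) against its CPM in adipose library 25_27 (left) and pooled over the 9 marrow libraries (right, both vertical log axes), with lines at fixed percentages of the adipose level. Marrow points lie along the line at 0.4%, Krt8 has no marrow counts and is not drawn there, and in library 25_27 Krt19 and Gpm6a lie above the 1% line.

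In library 25_27, 7 members were at the same kind of share: Msln at 0.287%, Upk3b at 0.4%, Upk1b at 0.564%, Lrrn4 at 0.382%, Wt1 at 0.288%, Krt18 at 0.251% and Muc16 at 0.461% of the level in the other 8 adipose libraries. Krt8, with 1 count, was at 0.980%. Wt1 had 14 counts in that library, which is 0.297 CPM with an exact 95% binomial interval of 0.162 to 0.498 CPM. Krt19 and Gpm6a stood above the share at 3.13% and 4.43%, with 56 and 283 counts. The 56 counts of Krt19 give 1.19 CPM with an interval of 0.896 to 1.54 CPM, which lies above its highest marrow value of 0.215 CPM. Such intervals cover counting error only, since copies of a molecule are not told apart. Only 60 of the 9428 genes, 0.636%, lay under 1% in library 25_27, and 7 of these were members. Among the 9428 genes the median level in library 25_27 was 95.03% of that in the other 8 adipose libraries.

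Further genes known from mesothelium were divided in library 25_27. Of 20 listed genes, 12 lay below all other adipose libraries, 7 lay within their range and Igfbp5 lay above it. Of 18085 genes with at least 100 counts in some adipose library, 6.44% lay below. Among the 7, Bnc1, Crb2 and Calb2 could not lie below, since their lowest value in the other libraries was 0 CPM. Slpi, a secreted protease inhibitor, had 2.46 CPM in library 25_27 and 97.0 to 234 CPM in the others. Rspo1, a secreted WNT enhancer, had 15.99 CPM against 88.2 to 190.0 CPM. Nkain4, a small membrane protein, had 0.106 CPM against 9.98 to 37.6 CPM. Tcf21, a transcription factor of visceral fat progenitors and embryonic mesothelium, had 0.297 CPM against 36.8 to 122 CPM. Pdpn, a surface glycoprotein shared by mesothelium and fibroblasts, stayed within range at 329 CPM. Except for Pdpn and Igfbp5, these genes of the list were named after their values were seen.

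A set of 4 transcription factor genes known from subcutaneous fat, listed after the values were seen, ran the opposite way. Tbx15 had 48.8 CPM in library 25_27 and 0.0336 to 1.98 CPM in the other 8 adipose libraries, and Shox2 had 109.5 CPM against 0.223 to 9.07 CPM. En1 and Hoxc10 had 58.9 and 59.4 CPM, against at most 6.46 and 9.003 CPM. In marrow En1 and Hoxc10 reached at most 0.143 and 0.256 CPM, whereas Tbx15 and Shox2 reached 88.6 and 314 CPM. Adipose progenitor genes were present in library 25_27, with Pdgfra at 325 CPM within the range of the others, Dcn at 14532 CPM likewise, and Pi16 at 1165 CPM above their highest value of 468 CPM. Of the 10 progenitor genes, Cd55 lay below the others, at 125 CPM against 199 to 443 CPM. Its median correlation with the other adipose libraries over genes was 0.894, inside their span of 0.839 to 0.912. Whether the library came from another depot was not tested.

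**Figure D3:**
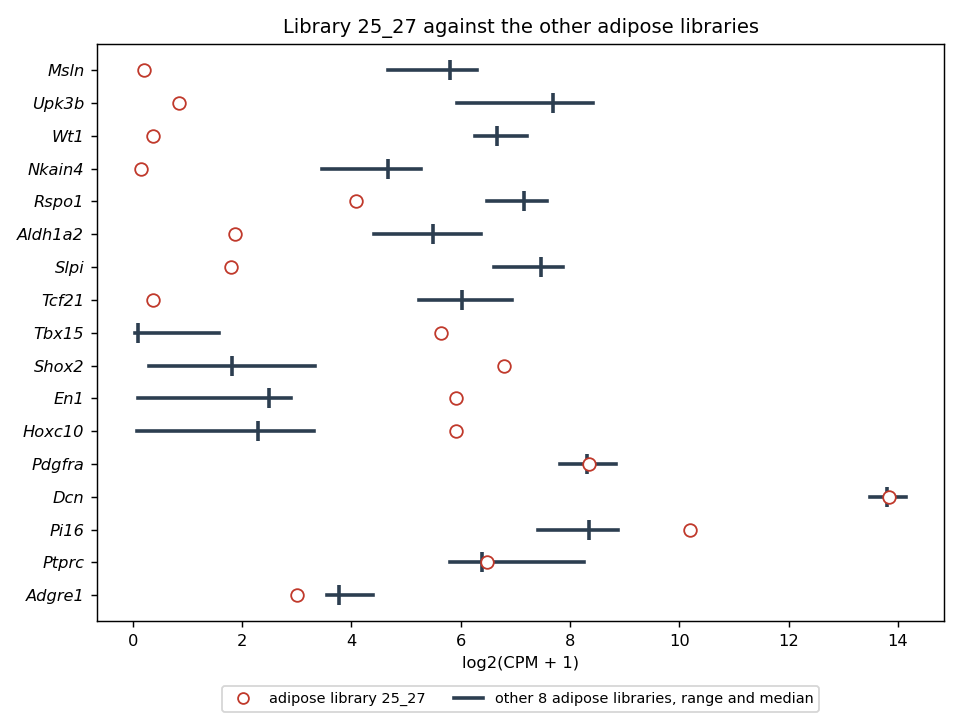
Level of 17 genes as log2(CPM + 1) in adipose library 25_27 (open circles) and in the other 8 adipose libraries (bar for the range, tick for the median), with mesothelial and visceral genes at the top, then subcutaneous, progenitor, leukocyte and macrophage genes. The circles lie left of the bars from Msln to Tcf21 and right of them from Tbx15 to Hoxc10. The genes drawn are a selection. Of the 20 further mesothelial genes, 7 lay within the range of the other libraries and 1 above it, and none of these is drawn. Of 7 macrophage genes, 6 lay within that range, and only Adgre1, the gene drawn, lay below it.

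Between tissues, and without library 25_27, 14 of the 20 further mesothelial genes were called higher in adipose by edgeR, 2 were called lower, 3 were tested and not called, and Calb2 was not tested. Krt7 and Dsp, a desmosome protein, were named after their values were seen. Krt7 had a log2 difference of 8.36 ± 1.19 with an adjusted p of 2.59e-05, and Dsp one of 7.13 ± 1.09 with an adjusted p of 2.42e-05. The 3 genes of this list with the highest adipose level had log2 differences of 5.61 ± 0.8294 for Pdpn, 4.93 ± 0.951 for Efemp1, a matrix glycoprotein, and -3.77 ± 0.753 for Igfbp5, an IGF-binding protein. The median of the list was 5.61, against 1.28 for all genes tested. Lrrn2 and Gpm6b, relatives of Lrrn4 and Gpm6a, were also higher in adipose, by 6.71 ± 0.920 and 2.74 ± 1.08.

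Glutamine changed no member in adipose past the threshold. The question is whether glutamine under the high-fat diet alters these genes. With all 9 libraries edgeR called 0 of 10 members and 0 of 15114 genes, 0.0%, with 624 genes at an unadjusted p under 0.05. DESeq2 called 31 genes and no member, and limma-voom called none. The members' log2 fold changes ran from -0.42 for Wt1 to 1.36 for Krt8, with a median of 0.33 against -0.02 for all genes. The direction was not stable, since limma-voom gave a median of -1.07 with 9 of 10 members negative.

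Without library 25_27, 9 of 10 members had a higher fitted level in HFD + Gln than in HFD, against 7055 of 14643 genes tested. Their median log2 fold change was 0.65 against -0.02 for all genes, but none passed. The library left out belongs to HFD + Gln and was low in these members. Leaving it out thus raises the HFD + Gln levels by construction, and the direction is no support for a glutamine effect. The sum of the members was 748 ± 112 CPM in HFD + Gln and 509 ± 189 CPM in HFD (SD, n = 4 each). Upk3b averaged 252 ± 68.2 CPM in HFD + Gln and 142 ± 74.1 CPM in HFD, a log2 fold change of 0.83 ± 0.342 (SE) with an edgeR adjusted p of 0.999 and an exact permutation p of 0.0857. The arms overlapped for Upk3b, with HFD library 14_17 above 2 of the HFD + Gln libraries. Gpm6a averaged 163 ± 33.5 CPM in HFD + Gln and 103 ± 47.2 CPM in HFD, with a log2 fold change of 0.65 ± 0.319. Msln averaged 61.7 ± 11.4 CPM in HFD + Gln and 39.3 ± 16.2 CPM in HFD, with a log2 fold change of 0.64 ± 0.320.

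Wt1 had the only negative value, with 100.01 ± 10.6 CPM in HFD + Gln and 105 ± 32.1 CPM in HFD and a log2 fold change of -0.09 ± 0.248. With 4 libraries a side the exact permutation test cannot go below a p of 0.0286. Krt19 had a log2 fold change of 0.30 ± 0.322, Upk1b 0.71 ± 0.476, Lrrn4 0.66 ± 0.437, Krt18 0.34 ± 0.628, Muc16 0.32 ± 1.19 and Krt8 1.68 ± 1.97. Muc16 and Krt8, with the widest errors, had libraries at or near 0. edgeR called 0 of 14643 genes here, 0.0%, with 462 at an unadjusted p under 0.05, DESeq2 called 15 and limma-voom none. The HFD library 23_28 had the lowest member sum of the 8, at 284 CPM, and the highest summed macrophage and leukocyte genes, at 774 and 351 CPM. Leaving it out as well brought the log2 fold change of Upk3b to 0.58 and that of Gpm6a to 0.41.

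**Figure D4:**
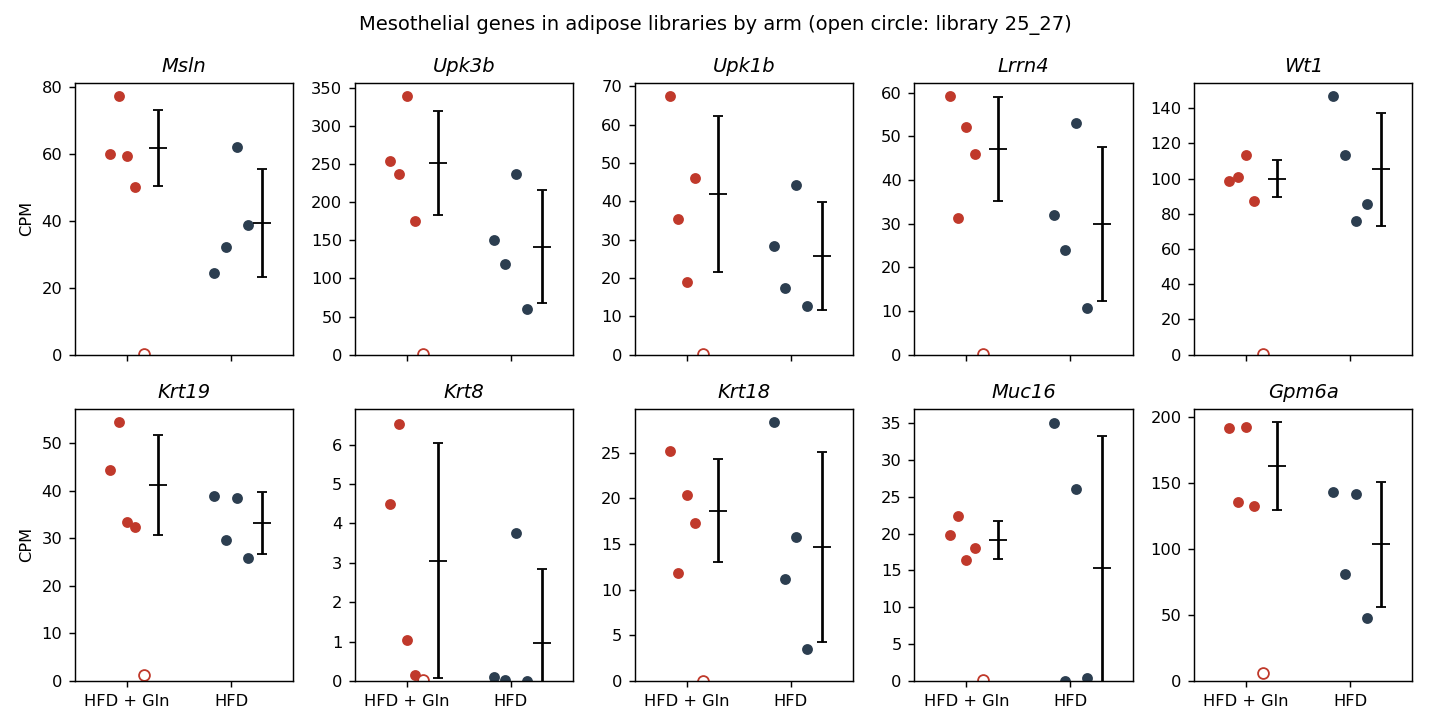
CPM of each member in the HFD + Gln adipose libraries (left, red) and the HFD adipose libraries (right, dark), with a point per library, library 25_27 as an open circle, and mean and SD (black, without library 25_27, n = 4 each, bars cut at 0). The arms overlap for all 10 members, and Muc16 is near 0 in 2 HFD libraries.

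In marrow, only Upk3b had enough counts to be tested, and its log2 fold change was -0.66 ± 0.948 with an edgeR adjusted p of 0.834, where 0.132% of 6041 genes were called. Upk3b had 14 to 28 counts in the HFD + Gln marrow libraries and 14 to 35 in the HFD marrow libraries. The other 9 members had 0 to 21 counts in a marrow library. The difference of the glutamine effect between the tissues was called for 0 of 10 members, against 11.9% of 15203 genes with all libraries and 0.0% of 14762 without library 25_27. In the second fit 3891 genes were at an unadjusted p under 0.05, DESeq2 called 991 and limma-voom 3, and none was a member. With all libraries the difference for Upk3b was 0.90 ± 1.65 on the log2 scale, with an edgeR adjusted p of 0.857.

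Within adipose the members did not all vary together. Over the 8 libraries without 25_27, 8 members had at least 10 counts in each. Of their 28 pairs, 25 had a positive Pearson correlation of log2(CPM + 1), with a median r of 0.564. The share among pairs of all genes was not computed, so whether these counts are particular to the members is not known. By correlation with the mean z score of these 8 members, Gpm6a ranked 6 and Upk3b 62 of 11625 genes, but Msln ranked 2749 and Wt1 4719. After adjustment over the 28 pairs, 4 passed an exact permutation test on r. These were Upk3b with Gpm6a (r 0.947, rho 0.857, p 0.00112, adjusted 0.0215), Lrrn4 with Gpm6a (r 0.943, rho 0.786, p 0.00154, adjusted 0.0215), Upk3b with Lrrn4 (r 0.916, rho 0.857, p 0.00355, adjusted 0.0283) and Krt18 with Gpm6a (r 0.907, rho 0.833, p 0.00404, adjusted 0.0283). The exact p of rho for these pairs was 0.0107 to 0.0279, and none passed after adjustment over the pairs, with adjusted values of 0.144 to 0.156.

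Without the 2 libraries farthest from the median of the first gene, r was 0.706 for Upk3b with Gpm6a, 0.634 for Lrrn4 with Gpm6a, 0.554 for Upk3b with Lrrn4 and 0.846 for Krt18 with Gpm6a. Within arms r was 0.914, 0.918, 0.880 and 0.930 for these 4 pairs. Wt1 stood apart, with r from -0.578 with Msln to 0.466 with Krt18. With all 9 libraries the values rest on library 25_27, and no r between members is given.

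**Figure D5:**
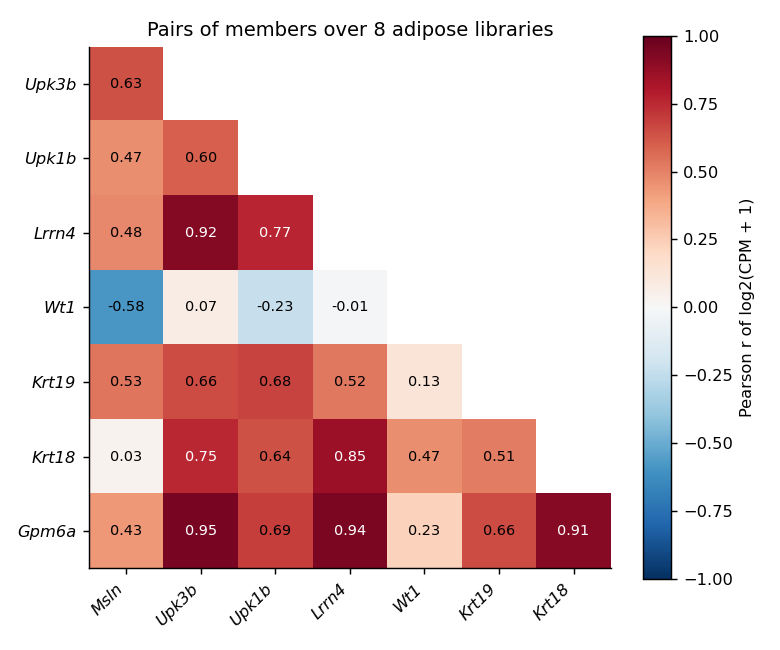
Pearson r of log2(CPM + 1) for the 28 pairs of 8 members over the 8 adipose libraries without 25_27, on a scale from -1 (blue) to 1 (red). The darkest red cells off the diagonal are the 4 pairs that passed, from 0.907 to 0.947, and the Wt1 cells are pale or blue.

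The 250 bases upstream of the start are shown for Upk3b, Lrrn4, Gpm6a and Krt18, the 4 members of these pairs, as read from RefSeq on GRCm38.p6, 5′ to 3′ on the strand of the gene. RefSeq promoter windows were matched for 6 of 10 members. Capitals mark ACATTCC, the core letters bound by TEAD factors, on either strand. The windows are chr5:136038246-136038495 on the plus strand for Upk3b, chr2:132880863-132881112 on the minus strand for Lrrn4, chr8:54779184-54779433 on the plus strand for Gpm6a and chr15:102027966-102028215 on the plus strand for Krt18.
Upk3b: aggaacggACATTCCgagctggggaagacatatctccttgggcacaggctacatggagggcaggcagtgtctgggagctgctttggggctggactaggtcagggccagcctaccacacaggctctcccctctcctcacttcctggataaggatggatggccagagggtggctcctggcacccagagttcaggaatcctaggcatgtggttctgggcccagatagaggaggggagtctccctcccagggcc
Lrrn4: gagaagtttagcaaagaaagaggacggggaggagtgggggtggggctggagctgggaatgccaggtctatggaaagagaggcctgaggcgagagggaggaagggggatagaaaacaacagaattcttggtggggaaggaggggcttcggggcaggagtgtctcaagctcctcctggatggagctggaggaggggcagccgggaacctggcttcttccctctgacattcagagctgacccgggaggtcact
Gpm6a: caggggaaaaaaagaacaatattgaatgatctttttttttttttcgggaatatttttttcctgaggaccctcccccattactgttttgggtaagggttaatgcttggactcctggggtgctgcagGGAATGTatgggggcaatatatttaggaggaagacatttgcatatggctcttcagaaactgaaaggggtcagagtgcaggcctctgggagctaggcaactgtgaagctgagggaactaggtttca
Krt18: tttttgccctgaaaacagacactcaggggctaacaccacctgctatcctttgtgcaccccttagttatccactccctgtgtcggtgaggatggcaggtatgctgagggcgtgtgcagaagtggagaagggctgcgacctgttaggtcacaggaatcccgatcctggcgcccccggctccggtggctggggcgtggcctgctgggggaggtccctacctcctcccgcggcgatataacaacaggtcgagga

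The TEAD letters were found on the plus strand of Upk3b, at position -242 from its start, and on the minus strand of this Gpm6a window, at -125. They occur in 3.25% of 32851 mouse promoter windows of the same length. This Gpm6a window ends at base 54779433 of chromosome 8, far upstream of the gene span in the GENCODE annotation, which begins at base 54954843. A downstream Gpm6a window, chr8:54954478-54954727, lies nearer that start and holds no TEAD letters. It holds TATAAA, the letters of the TATA box, on the minus strand at -211. TATAAA was in no other window of the members and is in 12.37% of the windows of all promoters. GCGTGGG, the letters bound by WT1 and EGR factors, GGGCGG of SP and KLF factors, and TGANTCA of AP-1 were in none of the 7 windows of the members on either strand, and are in 4.30%, 32.7% and 6.75% of the windows of all promoters. Binding was not measured.

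The genes whose level ran most closely with the members were named by the highest correlation with the mean z score of those members that had at least 10 counts in every library. Over the 9 adipose libraries they were Nkain4 (r 0.992), Mgam, Matn2, Cilp, Aldh1a7, Fibin, Rspo1, Col6a5, Slpi, Atp1b1, Mgp and Igfbp2 (r 0.975), out of 11651 genes ranked and with 4 members in the mean. All 12 were lower in library 25_27 than in each of the other 8, so this ranking, given as a description, rests on that library. Cilp, a cartilage and stromal matrix protein, had 61.7 CPM there against 648 to 1159 CPM, and Col6a5, a collagen VI chain, 6.44 CPM against 512 to 881 CPM. Over the 8 libraries without 25_27, with 8 members in the mean, the closest were Fbln1, Mxra8, Cep192, Hist3h2a, Dcun1d4, Btd, Tsen34, Tpsb2, Cldn10, C2, Tslp and Wdr6, with r from 0.959 to 0.995. Fbln1, a matrix glycoprotein, ranged from 63.7 to 223 CPM. No gene was in both sets.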

How the data were processed

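Total RNA, 30 ng a library, was primed on the poly(A) tail, and only read 1 was used, per the labels' protocols. The deposited files hold unnormalized whole-number counts per gene. The submitters' processing notes name STAR 2.7.10b, HTSeq 0.11.3, FastQC 0.12.1 and, as build, GRCm38. For the annotation and the strand option of the counting, nothing is stated. Gene positions come from GENCODE on GRCm38. Wt1os, an antisense gene, starts 19 bases from Wt1 without overlap. Krt8 and Muc16 each overlap 1 gene on the opposite strand and Gpm6a 5 gene models on its own strand, whose reads could be counted with them.

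The members and gene lists were chosen with earlier results of these data known. Counts were fitted with edgeR 4.0.16 in R 4.3.3 (filterByExpr, TMM factors, quasi-likelihood F test, two-sided, Benjamini-Hochberg adjustment over all genes tested, call at 0.05). The standard error is the size of the log2 difference divided by the square root of F. Adipose and marrow were each fitted alone for glutamine, and all 18 libraries together for the tissue difference and the interaction. DESeq2 1.42.0, limma 3.58.1 with voom and quality weights, other scalings, other count filters, single arms, a replicate block and leaving out each library were alternatives. Fits without library 25_27 were added after the data were seen. Permutation tests are exact and two-sided on log2(CPM + 1), with no adjustment over the members. Dixon's ratio was used for outlying values. No library pair was identical. The fits were tested on simulated data. By rule, all 10 members were named, with the 12 genes most like them and the 3 most abundant genes of a list.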

Additional observations from a re-analysis of the deposited data

Results flagged for a closer look

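A library was listed where its gap to the nearest other library of its group, divided by the range of log2(CPM + 1), passed Dixon's 95% critical value for the size of its group, which is 0.71 for 5 libraries. This held 13 times. Chance gives about 1 in 20 groups, but the members share libraries and are not separate trials, and 9 of the 13 are library 25_27 counted for each member and for their sum.

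Library 25_27 was the low sample of the adipose HFD + Gln group for 8 members, with ratios of 0.898 for Msln, 0.874 for Upk3b, 0.843 for Lrrn4, 0.942 for Wt1, 0.843 for Krt19, 0.778 for Krt18, 0.905 for Muc16 and 0.888 for Gpm6a. The sum of the 10 members had a ratio of 0.924 there. In adipose HFD, library 14_17 was the high sample for Krt8 with a ratio of 0.932. In marrow HFD, library 23_28 was the low sample for Upk1b with a ratio of 0.919, at 0 counts against 3 or 4 in the others. In marrow HFD + Gln, library 10_12 was the high sample for Gpm6a at 0.741, with 19 counts, and for the sum of the members at 0.735.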

How the results depend on the processing

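All 10 members were higher in adipose under every alternative in which they were tested. Members called between tissues numbered 6 with upper-quartile factors, 1 with limma-voom and 4 of 6 tested in the glutamine arm alone, against 10, and 9 to 10 on leaving out each library. Genes called numbered 4463 with limma-voom and 5132 in the HFD arm, against 7858, with 7020 to 8473 on leaving out each library. Without library 25_27 they numbered 4412 in the glutamine arm, against 7047. For glutamine in adipose, DESeq2 called 31 genes, or 15 without library 25_27, against 0. In marrow, no call was left (0 genes) under either other scaling or a stricter filter, 202 with no filter, 722 by DESeq2 and 1 by limma-voom, against 8, with 0 to 19 on leaving out each library. For the difference of the glutamine effect, the counts were 0 with either other scaling, 1055 by DESeq2, 3 by limma-voom and 0 to 2681 on leaving out each library, against 1811, with 0 without any 1 of the 9 adipose libraries or marrow HFD library 23_28. Without library 25_27 they were 991 by DESeq2 and 3 by limma-voom, against 0. The causes were not tested.

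No member was called for glutamine under any alternative, but signs turned. With 9 adipose libraries, limma-voom gave log2 fold changes of -1.10 for Msln, -1.04 for Upk3b, -1.11 for Upk1b, -1.14 for Lrrn4, -1.39 for Krt18, -0.19 for Muc16 and -0.48 for Gpm6a. Krt19 was at 0.029 with upper-quartile factors and Muc16 at -0.0072 with no filter. On leaving out each library, Upk1b ran from -0.050 to 0.76, Krt19 from -0.26 to 0.30, Krt18 from -0.32 to 0.56 and Muc16 from -0.42 to 0.83. Without library 25_27, Wt1 ran from -0.24 to 0.10 and Muc16 from -0.094 to 1.15.

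The number pairs are shared by the tissues, but same-numbered libraries did not deviate together (r -0.0091 to 0.030), and 4 of 8 correlated best with their own number. With the replicate block, 7499 genes and 9 of 9 members were called between tissues, against 7191 genes and 9 of 9 members in the same libraries without it, and 0 genes for the difference of the glutamine effect. Marrow depth limits what can be seen there, since 3 counts are 0.0790 to 0.215 CPM.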

Other observations

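Krt8 was above 1 CPM in 4 adipose libraries and at most 0.146 CPM in the other 5. Wt1os, an antisense RNA beside Wt1, and Epcam, an adhesion protein of other epithelia, were above 1 CPM in the same 4. Wt1os had 5.22, 7.69 and 7.14 CPM in HFD + Gln libraries 4_6, 10_12 and 13_15 and 4.96 CPM in HFD library 14_17, and at most 0.0926 CPM in the other 5 adipose libraries. Epcam had 3.22, 3.51, 1.19 and 4.28 CPM in those 4 libraries and at most 0.0212 CPM in the other 5. Epcam is 1 of 12 genes listed for other epithelium, and not all of them followed that division. The sum of the 12 was 37.7 to 46.9 CPM in those 4 libraries and 10.3 to 33.9 CPM in the other 5, Krt14 was at 15.1 CPM in library 18_20, and Cldn3 was at 21.4 CPM in library 25_27. A list of 12 epididymis genes, a tissue next to 1 visceral fat depot of male mice, summed to 125, 130, 46.4, 1.46 and 1.14 CPM in the HFD + Gln adipose libraries and 22.4, 0.223, 9.22 and 127 CPM in the HFD adipose libraries. It was high in HFD library 23_28, where Krt8 had no counts. These genes were chosen after their values were seen, and their part in the Krt8 values was not tested.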
